A study of Homo sapiens with 12 samples.

Results

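The genes encoded by mitochondrial DNA (mtDNA) were followed here in tumor-associated macrophages (TAMs). They were chosen as the genes whose symbol starts with MT-, which gave 37 of the 58735 genes in the deposited table: 13 mRNAs, 2 rRNAs and 22 tRNAs. The TAMs were made from THP-1, a human monocytic leukemia cell line, by PMA treatment, and shared medium through a Transwell membrane with AsPC-1 pancreatic cancer cells. RNA was sequenced from 4 groups of 3 libraries. In control (labelled NC) the AsPC-1 cells carried an empty vector, and in OE-MMP28 they overexpressed the metalloproteinase MMP28. The anti-IL-8 and anti-VEGFA groups were OE-MMP28 cocultures that also received a neutralizing antibody against IL-8 or VEGFA. All 12 libraries therefore share the THP-1 line, PMA and an AsPC-1 coculture, and none is labelled as a culture with a control antibody, so an antibody's target and the presence of an antibody cannot be told apart. Against control, the antibody groups differ in both MMP28 overexpression and an added antibody, and these cannot be told apart in those comparisons. The labels give replicate numbers but do not say that replicates came from separate cultures, so p-values measure the spread between these libraries, which may be technical.

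Human mtDNA is a small circle present in many copies per cell. Both of its strands are transcribed as long RNAs, which are cut, mostly at the tRNAs between the other genes, into mRNAs, rRNAs and tRNAs. The mRNAs encode core subunits of respiratory complexes I, III, IV and V, and the rRNAs and tRNAs serve the mitochondrial ribosome that translates them. Everything else that mtDNA needs, from its RNA polymerase to its RNA decay enzymes, is encoded in the nucleus. In macrophages, respiration and glycolysis are known to shift with activation state.

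The genes lie close together on the mitochondrial chromosome (GENCODE 29, build GRCh38), and short stretches of sequence bear on which gene a read was counted for. The first set shows the 5 tRNA genes between MT-ND2 and MT-CO1. They include MT-TC and MT-TN, the tRNA genes with the most counts over the libraries together, and also the almost uncounted MT-TA and MT-TW. Each is given 5′ to 3′ as the tRNA reads, with U written as T and the anticodon in capitals.
MT-TW (chrMT:5512-5579, plus strand, tRNA for tryptophan): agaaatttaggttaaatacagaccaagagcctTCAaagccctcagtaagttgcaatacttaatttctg
MT-TA (chrMT:5587-5655, minus strand, tRNA for alanine): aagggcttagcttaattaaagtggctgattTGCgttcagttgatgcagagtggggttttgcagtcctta
MT-TN (chrMT:5657-5729, minus strand, tRNA for asparagine): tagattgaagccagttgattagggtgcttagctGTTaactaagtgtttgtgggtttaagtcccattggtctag
MT-TC (chrMT:5761-5826, minus strand, tRNA for cysteine): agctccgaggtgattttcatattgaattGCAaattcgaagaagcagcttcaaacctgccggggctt
MT-TY (chrMT:5826-5891, minus strand, tRNA for tyrosine): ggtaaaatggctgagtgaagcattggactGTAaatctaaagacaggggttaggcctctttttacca
MT-TN and MT-TC are 31 bases apart, and that gap holds the light-strand origin of replication. MT-TC and MT-TY share 1 base.

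The second sequence is the whole of MT-ATP8 (chrMT:8366-8572, plus strand), the shortest MT mRNA gene, which gave the only adjusted call among the MT genes. Its last 46 bases, in capitals, are also the first 46 bases of MT-ATP6 on the same strand.
MT-ATP8: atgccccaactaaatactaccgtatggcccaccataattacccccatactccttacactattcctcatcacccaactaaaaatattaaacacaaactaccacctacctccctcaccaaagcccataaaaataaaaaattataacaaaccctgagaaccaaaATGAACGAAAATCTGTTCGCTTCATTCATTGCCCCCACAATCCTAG
Reads from those 46 bases belong to both genes, and how the counting treated them is not given in the sources used here. MT-ND4L and MT-ND4 share 7 bases, MT-TI and MT-TQ 3, and MT-ATP6 and MT-CO3 1. Whether the counts used strand is also not given, so counts on MT-ND6 and on the 8 tRNA genes of the same strand cannot be told apart from antisense RNA of the other strand.

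The third set shows why nuclear copies matter: it sets the first 120 bases of MT-ATP6 beside those of MTATP6P1, a pseudogene on chromosome 1 (GRCh38), with the base that differs in capitals.
MT-ATP6 (chrMT:8527-8646, plus strand): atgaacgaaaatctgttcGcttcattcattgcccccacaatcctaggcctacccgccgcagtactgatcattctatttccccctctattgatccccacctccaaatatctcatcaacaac
MTATP6P1 (chr1:633696-633815, plus strand): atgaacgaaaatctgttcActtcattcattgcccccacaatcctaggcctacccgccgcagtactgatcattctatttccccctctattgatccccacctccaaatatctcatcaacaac
Only 1 of these 120 bases differed. Over all 681 bases MTATP6P1 was 98.5% identical to MT-ATP6, with 10 substitutions and an unbroken identical stretch of 141 bases. MTND2P28 was 98.2% identical to MT-ND2, with a longest identical stretch of 266 bases, and MTCO1P12 was 98.6% identical to MT-CO1, with one of 245 bases.

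Library totals lay between 15852346 and 18701195 counts, at which 3 counts correspond to 0.160 to 0.189 CPM (counts scaled to equal library totals). MMP28 had 0 counts in each of the 12 libraries, which are of the TAMs and not of the cells that overexpressed it. Of 9 macrophage markers, 8 were present in every library. ITGAM (CD11b) had 6266 to 10445 counts and CD14 had 11260 to 28850, while LYZ had 76 to 182 and AIF1 148 to 280. CD68, a usual macrophage marker, had 0 to 5 counts and so went the other way from the other 8, and the reason was not tested. Of 8 epithelial markers, EPCAM had 0 counts in every library, MUC1 had 28 to 65, and the others had at most 22.

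MT genes took between 6.92% and 17.8% of a library's counts, and the 4 groups overlapped. In replicate order, the share was 7.44%, 8.25% and 9.95% for control, while OE-MMP28 gave 8.41%, 11.8% and 12.3%. The anti-IL-8 libraries had 11.3%, 9.09% and 9.01%, and those of anti-VEGFA 6.92%, 17.8% and 10.3%. The anti-VEGFA group thus held both the lowest and the highest library of the series, and its range was wider than that of any other group. Those libraries also differed in how many genes had a count, 25769 at the lowest MT share and 23089 at the highest. Over the 12 libraries, the log2 ratio of MT to nuclear counts and the number of genes with a count had Pearson's r = -0.54 (permutation test, p = 0.0743) and Spearman's rho = -0.50 (permutation p = 0.1006), or adjusted p = 0.149 and 0.201 over the 4 relations computed by permutation after the data were seen. The r was -0.32 without anti-VEGFA libraries 1 and 2, and -0.80 after centring each group, and the part of gene detection in the MT share was not tested. Each share has a 95% Wilson interval of at most 0.0183 percentage points on either side, which covers counting error only, so the differences between replicates were far wider than counting error. The group means were 8.55% ± 1.28, 10.8% ± 2.11, 9.81% ± 1.31 and 11.7% ± 5.57 (SD, n = 3 each) in the same order of groups. An exact permutation test over the 15400 arrangements of the libraries into 4 groups gave p = 0.7125, with 17.5% of the variance between groups. Without anti-VEGFA libraries 1 and 2 the exact p was 0.4329, and with any 1 library left out it lay between 0.1545 and 0.8818.

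**Figure D1:**
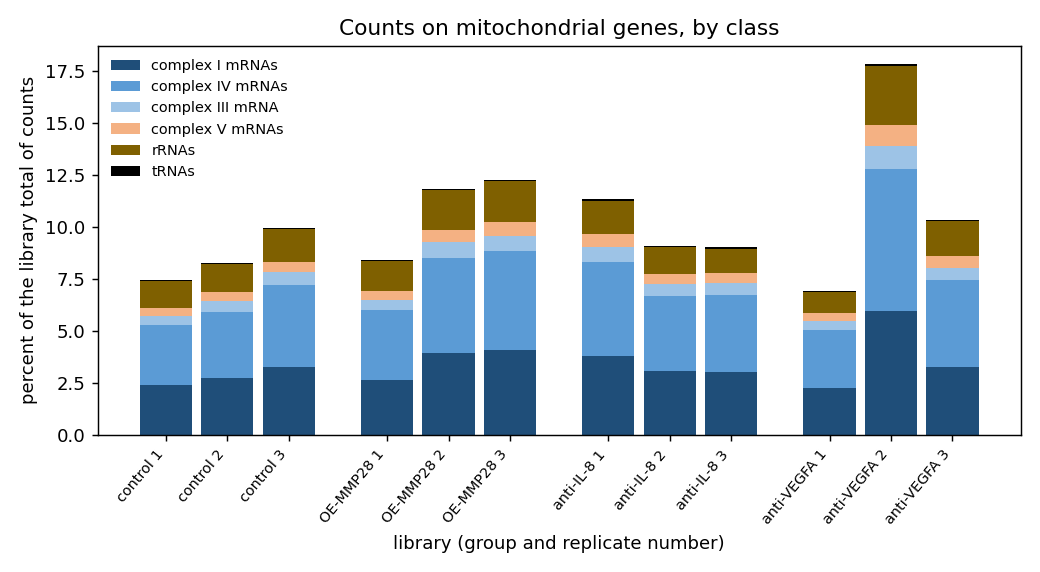
Percent of each library's counts on MT genes (y axis) in the 12 libraries (x axis, grouped), stacked by class: mRNAs of complexes I, IV, III and V, rRNAs and tRNAs. The bars run from 6.92% in anti-VEGFA library 1 to 17.8% in anti-VEGFA library 2, and the classes keep similar proportions in both.

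Taken 2 groups at a time, the share differed by 2.29 percentage points between OE-MMP28 and control (exact permutation test, two-sided, p = 0.2). Anti-IL-8 and anti-VEGFA differed from OE-MMP28 by -1.03 and 0.84 points (exact p = 0.6 and 0.9), and from control by 1.26 and 3.13 points (exact p = 0.4 and 0.6). In all 5 comparisons the libraries overlapped, and the p-values adjusted over the 5 lay between 0.75 and 0.9. With 3 libraries against 3 this exact test cannot give a p below 0.1. All of these differences moved with single libraries. That of OE-MMP28 from control was 1.58 to 3.51 points, highest without OE-MMP28 library 1. That of anti-IL-8 from OE-MMP28 was -2.25 without OE-MMP28 library 1 and -0.317 without library 3, and that of anti-IL-8 from control was 0.504 without anti-IL-8 library 1 and 1.96 without control library 3. The anti-VEGFA difference from OE-MMP28 changed sign: it was -2.23 points without anti-VEGFA library 2 and -0.37 without OE-MMP28 library 1. The anti-VEGFA difference from control was 0.0683 points without anti-VEGFA library 2, and 5.51 points without library 1. In such bulk samples a larger share of MT counts in every cell and a larger number of cells with a high share cannot be told apart.

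Within the MT genes, the order of levels was stable. On the authors' FPKM scale, which is per length, the mRNAs of the 3 core complex IV subunits stood highest, with medians over the 12 libraries of 12847 for MT-CO1, 12456 for MT-CO3 and 11967 for MT-CO2. These 3 held ranks 1 to 3 among the 15 MT mRNAs and rRNAs in every library. Among the complex I subunits, MT-ND4 (median 9019) and MT-ND1 (8583) were highest and MT-ND5 lowest (1588), with MT-ND4L, MT-ND3, MT-ND2 and MT-ND6 at 4420, 4099, 3358 and 2479. MT-CYB, the complex III subunit that mtDNA encodes, had a median of 5185. MT-ATP6, a membrane subunit of ATP synthase (complex V), had a median of 7513, and MT-ATP8, its short partner, had 252, the lowest of the 15 in every library. MT-RNR2, the large ribosomal RNA, had a median of 8524, and MT-RNR1, the small one, had 1204. MT-ND2, MT-ND6, MT-ND5, MT-RNR1 and MT-ATP8 held ranks 11 to 15 in that order in every library. Neighbours above rank 11 traded places, as MT-ND4, MT-ND1 and MT-RNR2 did within ranks 4 to 7.

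**Figure D2:**
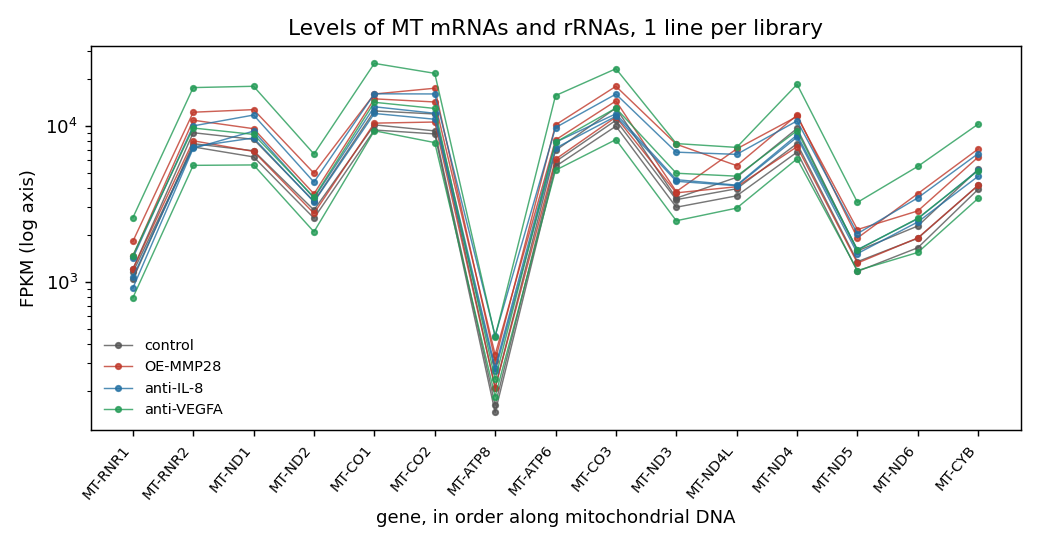
FPKM (y axis, log axis) of the 13 MT mRNAs and 2 rRNAs in order along mtDNA (x axis), with 1 line for each of the 12 libraries, coloured by group. The lines run nearly parallel, with MT-ATP8 lowest (145 to 451) and MT-CO1, MT-CO2 and MT-CO3 highest in every library.

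MT-ND4L and MT-ND4 are read from one shared mRNA, as are MT-ATP8 and MT-ATP6, yet their FPKM differed. The ratio of MT-ND4L to MT-ND4 was 0.395 to 0.620, and that of MT-ATP6 to MT-ATP8 was 21.6 to 37.8. The 2 rRNAs come from the same precursor, and MT-RNR2 stood 6.37 to 7.87 times as high as MT-RNR1. The lengths of MT-ATP8 (207 bases) and MT-ND4L (297 bases), the overlaps and the pseudogene copies differ between these pairs, and their part in the ratios was not tested.

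The MT mRNAs and rRNAs varied together from library to library. On the log2 scale of TMM-scaled CPM, a single common level per library held 86.5% of the variance of these 15 genes over the 12 libraries. The SD of that common level was 0.41, against a median SD of 0.14 for a gene around it. MT-ATP8 (0.29), MT-RNR1 (0.23) and MT-ND3 (0.21) departed most from the common level, and MT-CYB least (0.08). Within groups, the median SD of the 15 genes was 0.45, against 0.28 for all 16046 tested genes and 0.21 for the 1832 nuclear genes over 100 CPM. By group it was 0.19 (control), 0.34 (OE-MMP28), 0.25 (anti-IL-8) and 0.77 (anti-VEGFA). Because the genes share that level, counts of MT genes in 1 direction in the comparisons below largely count the same library-wide quantity more than once.

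Of the 37 MT genes, 32 passed the filter on low counts and were tested (13 mRNAs, 2 rRNAs and 17 tRNAs), with edgeR's quasi-likelihood test and Benjamini-Hochberg adjustment over the 16046 genes tested. The 5 tRNA genes left out, MT-TQ, MT-TF, MT-TL2, MT-TA and MT-TS2, had at most 15 counts in any library.

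The first question was how TAMs differed when the cocultured cancer cells overexpressed MMP28. MT genes stood higher on average in OE-MMP28 than in control, but none passed the test. The median log2 fold change of the 32 genes was 0.44 (all tested genes 0.02), and 31 of the 32 were above 0, as were 8560 of all 16046. No MT gene passed an adjusted p of 0.05 with edgeR, DESeq2, limma's voom or limma on FPKM, where edgeR called 3.16% of all tested genes, and 6 passed an unadjusted p of 0.05 (14.5% of all tested genes did). All libraries of OE-MMP28 stood above all control libraries for 9 MT genes (9.63% of all tested genes did so), of which 8 were tRNAs and 1 was MT-ND3, and none stood below (11.6%). For MT-TK the lowest OE-MMP28 library was at 0.660 CPM and the highest control library at 0.651. The same values were 0.702 and 0.693 for MT-TM, which had 8 to 15 counts, and 2.14 and 2.07 for MT-TS1. They were wider apart for MT-TN (120 and 102) and MT-TT (19.0 and 15.4). The mRNAs of the complexes differed by similar amounts, none of them called: MT-CO1 differed by 0.37 (SE 0.27), MT-CYB by 0.39, MT-ND1 by 0.44 and MT-ATP6 by 0.41 on the log2 scale. The largest difference was that of MT-TK, at 1.11 (SE 0.63, edgeR adjusted p = 0.46), which rests on 4 to 26 counts per library in the 6 libraries.

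With anti-IL-8 against control, MT-ATP8 alone among the MT genes passed the test. The scaled level of MT-ATP8 was 30.4, 33.8 and 44.1 CPM in the control libraries, 43.8, 71.4 and 65.4 in those of OE-MMP28, 93.9, 56.2 and 57.9 under anti-IL-8, and 38.7, 93.0 and 49.8 under anti-VEGFA. All anti-IL-8 libraries stood above all control libraries, and the other 2 groups overlapped with control. The log2 fold change of anti-IL-8 against control was 0.94 (SE 0.27, edgeR adjusted p = 0.0241). The call was lost without control library 1, control library 2 or anti-IL-8 library 1 (edgeR adjusted p = 0.0882, 0.0853 and 0.134, log2 fold change 0.83, 0.90 and 0.70), and with limma on FPKM (adjusted p = 0.0591). In this comparison 20.7% of all tested genes were called, so 1 of 32 is a lower share than that background. MT-ND3 and MT-ND6 of complex I differed by 0.67 (SE 0.32, edgeR adjusted p = 0.138) and 0.51.

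The median log2 fold change of the MT genes with anti-IL-8 against control was 0.36 (all tested genes -0.02), or 0.22 without anti-IL-8 library 1, and 31 of 32 were above 0. All anti-IL-8 libraries stood above all control libraries for 11 MT genes (23.4% of all tested genes), 5 mRNAs and 6 tRNAs, and none stood below (24.4%). Both rRNAs were apart from this: MT-RNR1 differed by -0.01 and MT-RNR2 by 0.01. Of the 6 tRNAs, MT-TI rests on 6 to 15 counts in control and 15 to 28 under anti-IL-8. MT-TM, also of the 6, rests on 8 to 12 and 15 to 20. The unadjusted p was under 0.05 for 5 MT genes (35.9% of all tested genes).

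With anti-VEGFA against control the MT genes had their largest median, 0.49 (all tested genes 0.00), with all 32 above 0, yet none passed an adjusted p of 0.05 with edgeR, DESeq2, voom or limma on FPKM (edgeR called 11% of all tested genes). At an unadjusted p of 0.05 there were 6 (27% of all tested genes). The libraries of the groups did not overlap for 1 gene, MT-TY, which stood higher with anti-VEGFA (16.9% of all tested genes did so, and 17.4% stood lower). This median depended on anti-VEGFA library 2: without it the median was -0.04, and without library 1 it was 0.78 and 12 of 33 MT genes were called higher, where 10.2% of all tested genes were called. MT-ATP8 (0.74, SE 0.27), MT-ND6 (0.71, SE 0.32) and MT-ATP6 (0.64, SE 0.28) had the largest differences among the mRNAs, with edgeR adjusted p = 0.0881, 0.164 and 0.154.

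**Figure D3:**
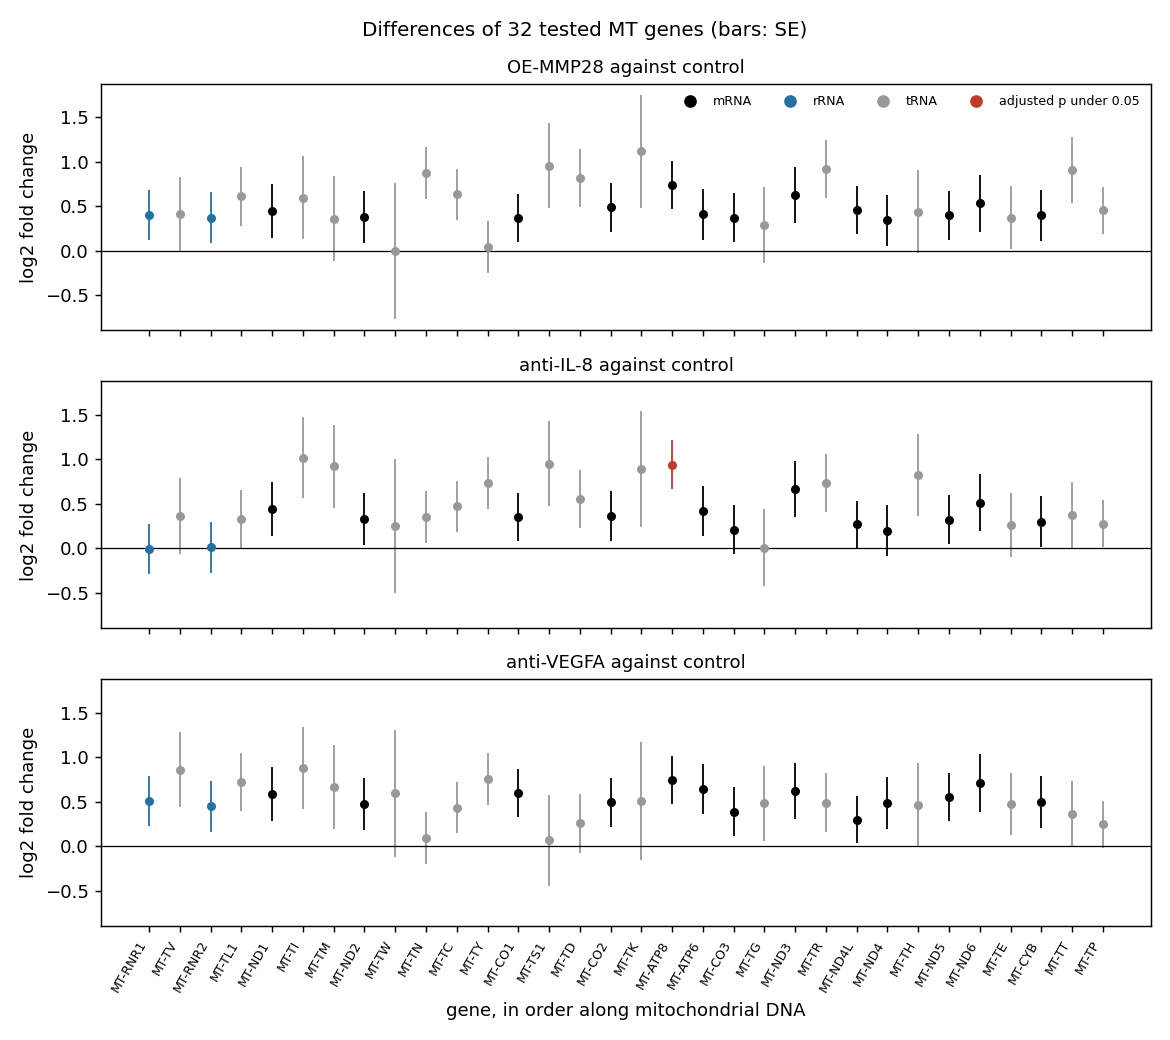
Log2 fold change (y axis, bars SE from edgeR) of the 32 tested MT genes in order along mtDNA (x axis) for OE-MMP28, anti-IL-8 and anti-VEGFA, each against the same 3 control libraries. Most points lie above 0, MT-ATP8 with anti-IL-8 is the 1 gene past an adjusted p of 0.05, and both rRNAs (blue) lie at 0 with anti-IL-8.

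The antibody groups were then set against OE-MMP28, which shares their MMP28-overexpressing cancer cells. With anti-IL-8 the median log2 fold change of the 32 MT genes was -0.10 (all tested genes -0.02), 8 were above 0, and edgeR called none (0% of all tested genes were called, and 1 MT gene passed an unadjusted p of 0.05, as did 29.3% of all). DESeq2, which called 14.1% of all tested genes here, and voom and limma on FPKM also called 0 MT genes. MT-TY and MT-TM stood above OE-MMP28 in every library (13.7% of all tested genes did so), and no MT gene stood below (15.3%). MT-TM rests on 15 to 20 counts per library under anti-IL-8 and 12 to 15 in OE-MMP28. This median turned to 0.07 without OE-MMP28 library 3, and to 0.00 without anti-IL-8 library 2. With anti-VEGFA the median was 0.10 (all tested genes -0.00), 22 of 32 were above 0, and no MT gene was called by edgeR (0.343% of all tested genes), DESeq2, voom or limma on FPKM, with 2 at an unadjusted p of 0.05 (18.8% of all tested genes). For no MT gene did the anti-VEGFA libraries stand apart from those of OE-MMP28 (18.1% of all tested genes did so in either direction). The anti-VEGFA median was -0.04 with voom and -0.03 with limma on FPKM, so its direction depended on the tool, and it was -0.45 without anti-VEGFA library 2. All mRNAs lay between -0.18 and 0.20 with anti-IL-8, and between -0.16 and 0.23 with anti-VEGFA.

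The composition of the MT counts, which no scaling between libraries touches, differed between the groups in its rRNA part. MT-RNR1 and MT-RNR2 together took 17.2%, 16.5% and 16.0% of MT counts in the control libraries, and 16.9%, 16.2% and 15.9% in those of OE-MMP28. They took 14.0%, 14.1% and 12.9% under anti-IL-8, and 14.7%, 15.9% and 16.3% under anti-VEGFA. All 3 anti-IL-8 libraries were below the other 9, while control, OE-MMP28 and anti-VEGFA overlapped. The exact permutation test over the 4 groups gave p = 0.00539, or 0.02156 adjusted over the 4 classes tested, and 81.5% of the variance lay between groups. The anti-IL-8 mean of 13.7% ± 0.69 (SD, n = 3) was 2.64 percentage points below OE-MMP28 and 2.88 below control, each with p = 0.1 in the exact test of 3 against 3, the smallest it allows (0.25 adjusted over 5 comparisons). Leaving out any 1 of the 3 anti-IL-8 libraries kept the exact p between 0.01831 and 0.02357, but the adjusted values were then 0.08286, 0.07325 and 0.09429 without library 1, 2 and 3. Counts of each rRNA showed the same: MT-RNR2 took 11.96% to 12.98% of MT counts with anti-IL-8 against 14.6% to 15.7% in control and OE-MMP28, and MT-RNR1 took 0.929% to 1.16% against 1.21% to 1.51%.

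The levels behind this share were measured as well. MT-RNR2 stood at 11517, 12107 and 14354 CPM in the control libraries, 12611, 17138 and 19327 in those of OE-MMP28, 15652, 11623 and 11092 under anti-IL-8, and 8848, 27607 and 15311 under anti-VEGFA. The groups overlapped in level. Against OE-MMP28, anti-IL-8 differed by -0.36 for MT-RNR2 and by -0.41 for MT-RNR1 on the log2 scale, and neither was called (smallest edgeR adjusted p of the 2 rRNAs 0.348). The median of the 13 MT mRNAs in that comparison was -0.06. Against control, the 2 rRNAs differed by 0.01 and -0.01 with anti-IL-8, while the median of the 13 MT mRNAs was 0.35. So the lower rRNA share went with different levels in the 2 comparisons. Whether the libraries were made after rRNA depletion or poly(A) selection is not given in the sources used here, and the part of library preparation in the rRNA share was not tested.

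The other classes did not pass. Complex I mRNAs took 31.5% to 33.8% of MT counts over the 12 libraries (exact p = 0.2213, adjusted over the 4 classes 0.2213). The tRNAs took 0.483% to 0.735% (exact p = 0.0911, adjusted 0.1258). The 9 genes of the light-strand set, MT-ND6 and 8 tRNAs, took 1.67% to 2.08% (exact p = 0.09435, adjusted 0.1258). Complexes IV, III and V were not tested as classes over the 4 groups; the mRNAs of complex IV took 38.2% to 40.7%, MT-CYB 5.82% to 6.36% and complex V 4.94% to 5.78%.

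Single genes within the MT counts are described without a test, from 185 pairs of a gene and a comparison, of which 44 did not overlap between groups. Only MT genes enter this measure, so no share over all genes stands beside that number, and nothing is read from it. MT-ATP8 took 0.0415% to 0.0455% of MT counts in the control libraries, 0.0494% to 0.0622% in those of OE-MMP28, 0.0624% to 0.0774% under anti-IL-8 and 0.0484% to 0.0594% under anti-VEGFA. Its control libraries were thus below those of the other 3 groups. Its anti-IL-8 libraries were the highest 3 only narrowly, with 0.0624% at the lowest against 0.0622% in the highest OE-MMP28 library. MT-ATP6, which shares the 46 bases shown above, took 4.97% to 5.15% in control and 5.50% to 5.72% with anti-IL-8. MT-CO1 took 19.9% to 20.2% in control, and more in every library of both antibody groups, where its lowest shares were 20.5% (anti-IL-8) and 20.6% (anti-VEGFA). MT-CO3, of the same complex, went the other way. It took 10.7% to 10.8% in control, 10.0% to 10.4% with anti-IL-8 and 9.68% to 10.0% with anti-VEGFA. MT-CO2 overlapped with control in both antibody groups.

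**Figure D4:**
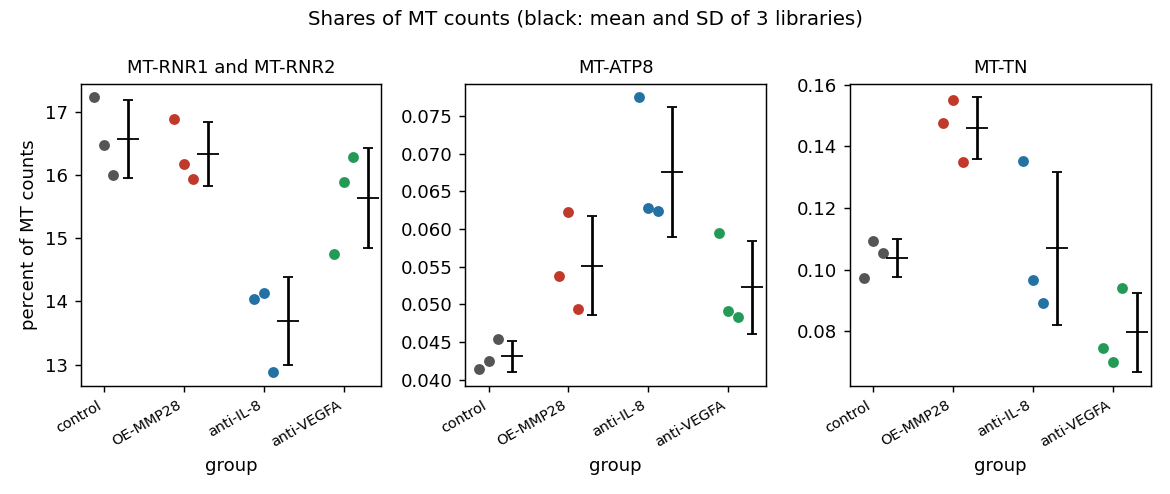
Percent of MT counts (y axes, which do not start at 0) taken by the 2 rRNAs, by MT-ATP8 and by MT-TN in the 4 groups (x axes), with a point for each of the 3 libraries and the mean and SD in black. The 3 anti-IL-8 libraries (12.9% to 14.1%) lie below the other 9 for the rRNAs, and the 3 control libraries (0.0415% to 0.0455%) lie below the other 9 for MT-ATP8.

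Among the tRNAs, counts were concentrated in few genes. MT-TC had 3077 to 7299 counts per library, MT-TN 818 to 3038, MT-TY 485 to 2000, MT-TL1 (leucine) 634 to 2053, MT-TP (proline) 382 to 1004 and MT-TT (threonine) 134 to 535. The other 16 tRNA genes had at most 135 counts in any library, and MT-TS2 had 1 count in 1 library and 0 in the other 11. MT-TA and MT-TW, the next genes of the same cluster, had 0 to 10 and 2 to 16. Counts on a tRNA gene may come from the tRNA or from a longer transcript that holds it, and these cannot be told apart.

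MT-TN and MT-TY, whose sequences are shown above and which lie on the same strand, differed in pattern. MT-TN stood at 71.2, 86.8 and 102 CPM in the control libraries, 120, 178 and 179 in those of OE-MMP28, 164, 86.4 and 82.6 under anti-IL-8, and 48.6, 133 and 96.7 under anti-VEGFA. All OE-MMP28 libraries were above all control libraries, by 0.87 on the log2 scale (SE 0.29, edgeR adjusted p = 0.14). MT-TN differed by -0.78 between anti-VEGFA and OE-MMP28 (SE 0.29, edgeR adjusted p = 0.177). MT-TY stood at 42.6, 45.3 and 46.9 CPM in the control libraries, 49.1, 28.4 and 61.2 in those of OE-MMP28, 74.6, 67.6 and 81.6 under anti-IL-8, and 51.7, 127 and 49.4 under anti-VEGFA. Its anti-IL-8 libraries were above those of control and OE-MMP28, with log2 fold changes of 0.73 (edgeR adjusted p = 0.0792) and 0.69 (adjusted p = 0.126), and none of these differences was called. MT-TT, for threonine, resembled MT-TN between control and OE-MMP28: it stood at 10.8 to 15.4 CPM in control and at 19.0 to 31.5 in OE-MMP28. That is a log2 fold change of 0.91 (SE 0.37, edgeR adjusted p = 0.25). It stood at 13.2 to 21.8 CPM under anti-IL-8 and at 7.96 to 34.0 under anti-VEGFA.

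Counts on nuclear pseudogene copies of MT genes were small beside those on the MT genes. Of 407 such genes, 85 had a count and 4 had at least 10 in every library, and the copies together held 1.24 to 1.68 counts per 100 MT counts. MTND2P28, MTATP6P1 and MTCO1P12 took 99.3% to 99.7% of them. MTND2P28 had 24.0 to 39.6 counts per 100 of MT-ND2, while MTATP6P1 had 4.83 to 9.27 per 100 of MT-ATP6 and MTCO1P12 0.236 to 0.449 per 100 of MT-CO1. Adding the copies to the MT counts left the exact p at 0.7158 for the MT share and at 0.006169 for the rRNA share. A count on a copy that is 98.2% identical to its MT gene cannot be told apart from a misplaced read of that gene.

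The nuclear genes that transcribe, process and maintain mtDNA were given as the other genes of the pathway (44 genes, 43 tested). PNPT1, the mitochondrial polynucleotide phosphorylase that degrades mitochondrial RNA and that interferon is known to induce, fell in all 3 groups with MMP28-overexpressing cells. It stood at 136, 166 and 129 CPM in the control libraries, 29.4, 32.9 and 23.1 in those of OE-MMP28, 18.1, 22.2 and 17.8 under anti-IL-8, and 29.3, 29.2 and 27.2 under anti-VEGFA. All 9 libraries of those groups lay far below the 3 control libraries. The log2 fold changes against control were -2.33 (SE 0.15, edgeR adjusted p = 1.03e-08) in OE-MMP28, -2.89 (adjusted p = 1.17e-09) under anti-IL-8 and -2.33 (adjusted p = 1.74e-08) under anti-VEGFA, all against the same control libraries. It was the 1 gene of the list called in OE-MMP28 against control, where 2.64% of all tested genes were called lower.

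Against control, 5 list genes were higher and 2 lower with anti-IL-8 (9.77% and 10.9% of all tested genes), and 5 were higher and 1 lower with anti-VEGFA (5.6% and 5.37%). POLRMT, the mitochondrial RNA polymerase, stood at 84.8, 73.0 and 70.1 CPM in the control libraries, 97.5, 76.3 and 115 in those of OE-MMP28, 130, 112 and 140 under anti-IL-8, and 132, 114 and 123 under anti-VEGFA. Both antibody groups lay above control, by 0.74 (SE 0.15, edgeR adjusted p = 0.00301) and 0.70 (SE 0.15, adjusted p = 0.00586). TBRG4, of the FASTK family of mitochondrial RNA-binding proteins, was higher by 0.63 with anti-IL-8 (edgeR adjusted p = 0.00274) and by 0.43 with anti-VEGFA (adjusted p = 0.0318). ESRRA, a nuclear receptor that drives mitochondrial genes, was higher by 0.67 with anti-IL-8 (edgeR adjusted p = 0.00844) and by 0.55 with anti-VEGFA (adjusted p = 0.0315). In OE-MMP28, TBRG4 stood at 62.7, 52.5 and 70.5 CPM, and ESRRA at 72.8, 48.5 and 81.5. In control they stood at 53.4, 53.1 and 49.1, and at 73.2, 66.2 and 56.1. The anti-VEGFA calls of TBRG4 and ESRRA were lost in 6 and 5 of the 12 fits that left out 1 library, whereas those of PNPT1 and POLRMT were lost in none.

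TFAM, which packages mtDNA and starts its transcription, was the second gene lower with anti-IL-8. It stood at 33.2, 35.7 and 34.2 CPM in control, 40.4, 41.9 and 27.5 in OE-MMP28, and 26.8, 25.9 and 21.9 with anti-IL-8. The log2 fold change of anti-IL-8 against control was -0.47 (SE 0.16, edgeR adjusted p = 0.0415). That call was lost in 8 of 12 fits with 1 library left out. Over the whole list the medians were 0.09, -0.12 and -0.05 for OE-MMP28, anti-IL-8 and anti-VEGFA against control. Against OE-MMP28, edgeR called none of the 43 with either antibody (0% and 0.343% of all tested genes were called). For anti-IL-8, 18 of the 43 had an unadjusted p under 0.05 against 29.3% of all tested genes, and DESeq2 called 8 against 14.1%. For anti-VEGFA, 8 of the 43 had an unadjusted p under 0.05 against 18.8%, and DESeq2 called 0 against 2.67%.

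**Figure D5:**
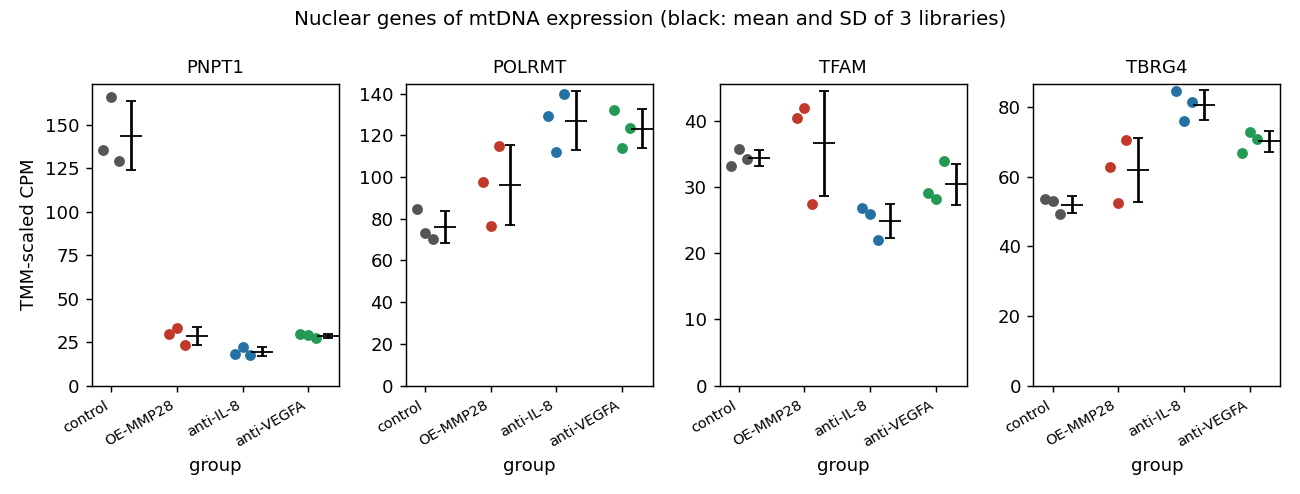
TMM-scaled CPM (y axes, from 0) of PNPT1, POLRMT, TFAM and TBRG4 in the 4 groups (x axes), with a point for each of the 3 libraries and the mean and SD in black. PNPT1 lies at 129 to 166 in control and at 17.8 to 32.9 in the other 9 libraries.

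The nuclear-encoded subunits of the respiratory complexes are partners of the MT mRNAs' products. With anti-IL-8 against control, edgeR called 11 of the 72 higher and none lower (9.77% and 10.9% of all tested genes). At an unadjusted p under 0.05 there were 35 (35.9% of all tested genes). All anti-IL-8 libraries stood above all control libraries for 44 of the 72 (23.4%), and below for 1 (24.4%). NDUFB9 of complex I (0.86), CYC1 of complex III (0.69) and ATP5F1D of complex V (0.93) were among the 11. The median log2 fold change of the 72 was 0.38 (anti-IL-8), 0.23 (OE-MMP28) and 0.07 (anti-VEGFA), while those of the MT mRNAs were 0.35, 0.41 and 0.55. OE-MMP28 gave 0 called genes of the 72 against control (3.16% of all tested genes were called), and 3 at an unadjusted p under 0.05 (14.5%). Anti-VEGFA gave 1 (11%), and 14 at an unadjusted p under 0.05 (27%). These 72 were written down after the files had been seen. Over the 12 libraries, their share of nuclear counts and the log2 ratio of MT to nuclear counts had Pearson's r = 0.56. The permutation p was 0.0553, or 0.149 adjusted over the 4 relations. The r was 0.41 without anti-VEGFA libraries 1 and 2, and 0.62 after centring each group. The remaining relations gave r = 0.12 for the nuclear list of mtDNA expression and -0.08 for the nuclear RNAs MALAT1 and NEAT1.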

How the data were processed

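RNA-seq libraries of cocultured TAMs were grouped from the sample titles alone, 3 in each of 4 groups. The read counts per gene were made by the authors with HISAT2 2.0.5 and featureCounts 1.5.0-p3, named in the submitters' processing notes. The gene IDs all occur in GENCODE 29, and the 37 MT genes have its coordinates. The build, strand setting and treatment of shared reads are not given in the sources used here. The FPKM values were deposited by the authors on a linear scale. Their library scale equals the DESeq2 size factors of the deposited counts, so they are not scaled to equal totals. The authors' deposited comparison columns hold group means, log2 fold changes and p-values, which were not used.

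Genes were kept by filterByExpr (16046), scaled by TMM and fitted with 1 coefficient per group in edgeR 4.0.16 (R 4.3.3), with Benjamini-Hochberg adjustment within each comparison and a threshold of 0.05. CPM are TMM-scaled. Shares were compared by exact permutation tests (Python 3.11.15, scipy 1.17.1). Figures used matplotlib 3.10.9, and the pseudogenes were aligned with biopython 1.88 to sequences from the GENCODE 29 transcripts. Tested on simulated data for OE-MMP28 against control, the fit recovered 82.5% of 200 genes changed 2-fold among 15673, with 7 false calls. The changed genes were nuclear genes above a count floor, and all genes were simulated independently with the same spread. MT genes varied together and more widely within groups, so recovery of changes in MT genes was not measured.

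The members, lists and tests were chosen with earlier results of these data known. Named genes were all MT genes by class, those called or the 3 largest differences per comparison, up to 4 called nuclear genes per comparison by smallest adjusted p, and the 3 pseudogenes with the most counts. MT-TN, MT-TY, MT-TT, TFAM and the 3 named nuclear-encoded subunits were picked after their values were seen. Alternatives were DESeq2 1.42.0, voom and FPKM with a pseudocount of 1 in limma 3.58.1, library totals, scaling on nuclear genes, other filters, protein-coding genes, fits of 2 groups, a replicate block and each library left out. Adding pseudogene counts, leaving out anti-VEGFA libraries 1 and 2 together and blocking the nuclear list were chosen after seeing the data.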

Additional observations from a re-analysis of the deposited data

How the results depend on the processing

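The numbers of MT genes called were as above with library totals, scaling on nuclear genes, DESeq2, voom, 10 counts in every library and protein-coding genes only. The number of MT genes called rose with no filter, to 8 for OE-MMP28, 9 for anti-IL-8 and 15 for anti-VEGFA of 37 against control (2.05%, 9.71% and 6.13% of all genes), and to 3 and 2 for anti-IL-8 and anti-VEGFA against OE-MMP28 (4.18% and 1.16%). In fits of the 2 groups alone it was 2 of 31 for OE-MMP28 and 12 of 31 for anti-IL-8 against control (3.25% and 39.8% of all genes). It was 0 for anti-IL-8 against control with limma on FPKM. The cause was not tested. DESeq2 called 8 nuclear genes of mtDNA expression for anti-IL-8 against OE-MMP28, and 14.1% of all genes, where edgeR called 0.

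With 1 library left out, MT genes called ranged from 0 to 2, 0 to 3 and 0 to 12 for OE-MMP28, anti-IL-8 and anti-VEGFA against control, and from 0 to 1 for both antibodies against OE-MMP28. The highest, 12, came without anti-VEGFA library 1 (10.2% of all genes called), and the 3 without anti-VEGFA library 2 (24%). Nuclear genes called ranged from 1 to 2, 3 to 12 and 2 to 7 against control (12 without OE-MMP28 library 2 or 3, with 26.2% and 25.2% of all genes called), and from 0 to 14 and 0 to 5 for anti-IL-8 and anti-VEGFA against OE-MMP28, both highest without OE-MMP28 library 3, where 25% and 8.48% of all genes were called. The exact p for the rRNA share ranged from 0.002987 to 0.02357, and for the tRNA share from 0.01981 (adjusted 0.03961, without OE-MMP28 library 2) to 0.2077. The anti-VEGFA difference from OE-MMP28 in MT share, -2.23 to 3.22 points, changed sign without anti-VEGFA library 2 (-2.23) or OE-MMP28 library 1 (-0.374).

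Replicate numbers did not pair the libraries: deviations of same-numbered libraries correlated between -0.15 and 0.19 (2 of 18 pairs above 0.1), and 3 of 12 libraries correlated best with their own number. With the replicate number as a block, MT genes called were 1 for anti-IL-8 against control and 0 in the other 4 comparisons, and nuclear genes called were 3 for anti-IL-8 against OE-MMP28 in place of 0 (4.95% of all genes). In blocked sign-flip tests of the MT share, whose smallest possible exact p is 0.25, the p lay between 0.25 and 1.

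Counting precision is low for 16 of the 22 tRNA genes, which had at most 135 counts in any library.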
